A study of Mus musculus with 24 samples.

Results

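Early differentiation was followed in 6 of the series' 24 libraries, the 3 made from hairpin-control cells after 24 h of retinoic acid (RA) and the 3 made from the same hairpin-control cells kept as mouse embryonic stem cells (mESCs). They were chosen by their titles alone, and every gene was tested. The cells are E14TG2a, a feeder-free mESC line of the 129/Ola strain derived from the blastocyst. All 6 libraries come from cells stably transfected with shNMC, a hairpin with no mammalian target. The RA group received all-trans RA at 1e-06 M without LIF, and the mESC group grew in serum with LIF and without RA. None of the 8 groups of the series lost LIF without receiving RA, so the addition of RA and the loss of LIF cannot be told apart. The labels do not say how many clones make up the shNMC line or whether replicates were separate cultures, so p-values measure a spread between libraries. That spread was estimated within the 8 groups of all 24 libraries, fitted together, and not from the 6 alone. Poly-A RNA was sequenced as strand-specific 50 bp reads. In bulk RNA, fewer cells of a type and less RNA per cell cannot be told apart.

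RA is made from retinol in successive oxidations, is carried in the cell by CRABP proteins and is broken down by the CYP26 enzymes. It binds the RAR partner of RAR/RXR heterodimers, which sit on DNA at direct repeats of a hexamer close to AGGTCA and exchange corepressors for coactivators when RA binds. In embryonic stem cells RA is a standard inducer of neural and other differentiation, and Hox genes, Rarb and Cyp26a1 are its textbook targets. LIF acts through Lifr, gp130 (Il6st), JAK kinases and Stat3 to keep mESCs in the naive pluripotent state.

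The sequences that RAR/RXR reads are shown for the receptor gene Rarb and the RA-degrading enzyme gene Cyp26a1, because they are the only receptor and breakdown genes here with such a repeat in the promoter window searched. Each line gives the 100 bases before the RefSeq start of the gene in build GRCm38.p6, 5′ to 3′ on the gene's strand, with the direct repeat in capitals. The counts were made on build mm9, and no coordinate was carried between builds. The Cyp26a1 window is chr19:37697708-37697807 on the plus strand, and its repeat, read on the opposite strand, begins 32 bases before the start. The Rarb window is chr14:16575477-16575576 on the minus strand, and its repeat begins 53 bases before the start.
Cyp26a1: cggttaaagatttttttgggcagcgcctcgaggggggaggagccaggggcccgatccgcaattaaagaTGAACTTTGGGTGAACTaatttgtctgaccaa
Rarb: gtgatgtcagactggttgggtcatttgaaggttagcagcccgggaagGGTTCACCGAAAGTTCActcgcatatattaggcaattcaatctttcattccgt

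Both repeats are 17 bases long, with 5 bases between the hexamers, and both end in the hexamer AGTTCA when read on their own strand. The search took any pair of 4 hexamers with 5 bases between them. They are AGGTCA, its variant AGTTCA, the form GGGTCA and the form GGTTCA. The search was made on both strands, in windows of 300 bases around the starts of 27025 genes. Of these genes 31 (0.115%) held such a repeat. Among genes called higher after RA by at least 2-fold it was 5 of the 1961 with a promoter in the table (0.255%, exact 95% interval 0.0828 to 0.594%). Among those lower by at least 2-fold it was 1 of 456 (0.219%), and among genes not called it was 2 of 6154 (0.0325%). Among the 12626 tested genes in the table it was 8 (0.0634%). The 5 were Cyp26a1, Rarb, the chemokine gene Ppbp, the prokineticin receptor gene Prokr2 and Tnfsf13b, which encodes the B cell factor BAFF. Ppbp had a mean of 0.114 CPM after RA and 0 in mESCs, so its call rests on few reads. Prokr2 stood at 2.22, 2.24 and 1.55 CPM after RA and 0.0830, 0.138 and 0.295 CPM in mESCs. With 2 bases between the hexamers, 3 of the 1961 genes (0.153%) matched, namely Slc25a21, Ano1 and Tinagl1. It was 3 of the 6154 genes not called (0.0487%), 11 of the 12626 tested genes in the table (0.0871%) and 84 of all 27025 (0.311%). These are matches of letters in a short window, and a window without a match says nothing about receptor binding.

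Gene reads were 49.4 to 51.0 M in the RA libraries and 42.8 to 56.5 M in the mESC libraries. A floor of 3 reads stood for 0.0533 to 0.0559 and for 0.0590 to 0.0737 counts per M reads (CPM). Genes with at least 1 read numbered 17980 to 18129 after RA and 17216 to 17476 in mESCs. On the first principal component, with 87.7% of the variance, RA libraries lay at -46.3, -47.3 and -37.0 and mESC libraries at 41.9, 47.8 and 40.9. RA replicate 3 thus lay closest to the mESCs. It was the lowest RA library for 1439 of the 2660 genes that rose by at least 2-fold (54.1%) and the highest for 402 of the 619 that fell by at least 2-fold (64.9%). Without it 4158 genes were higher and 3777 lower. Summed markers of embryonic stem cells were 2044 to 2497 CPM after RA and 4268 to 4390 CPM in mESCs. Blood markers summed to 2.97 to 3.67 and 5.53 to 6.37 CPM and fibroblast or feeder markers to 8.57 to 9.46 and 8.47 to 8.85 CPM, with Ptprc and Lum at 0 reads in all 6. Markers of neurons summed to 203 to 227 CPM after RA and 277 to 354 CPM in mESCs.

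RA with the loss of LIF changed 8363 of the 16280 genes tested (51.4%; edgeR quasi-likelihood test, Benjamini-Hochberg adjusted p under 0.05). Of all genes tested 4438 rose (27.3%) and 3925 fell (24.1%), and 2660 rose (16.3%) and 619 fell (3.8%) by at least 2-fold. All log2 changes are RA over mESC. The rises had a median of 1.22 on the log2 scale, with 1023 of at least 4-fold and 121 of at least 16-fold. The falls had a median of -0.53, with 124 of at least 4-fold and 13 of at least 16-fold, and 84.2% of them were under 2-fold. The genes that rose were mostly scarce and those that fell mostly abundant. Under 1 CPM, 46.0% of 2937 genes rose and 4.80% fell. Over 100 CPM, 5.17% of 2709 genes rose and 53.9% fell, with 123 falls of at least 2-fold and a median log2 change of -0.28. Genes called higher gained 37400 CPM in all, while genes called lower lost 190300 CPM. CPM are scaled by TMM factors, so the balance of these 2 sums follows the factors and does not measure a loss of RNA. The counts of calls depend on the scaling of libraries too. TMM factors were 1.09 to 1.11 after RA and 0.899 to 0.952 in mESCs, and with library totals in their place, a setting chosen after the data were seen, 6775 genes rose and 1878 fell. All genes moved up by a median of 0.25 (log2) under that setting, and 78.3% of calls were rises against 53.1% with TMM. That shift is near in size to the median fall of genes over 100 CPM. The shares by level were counted with TMM only. Of the genes called, all 4438 rises and 1878 of the falls were kept and 0 changed direction. The counts of gene lists that follow are to be read beside the shares of all genes tested, 27.3% for rises and 24.1% for falls.

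**Figure D1:**
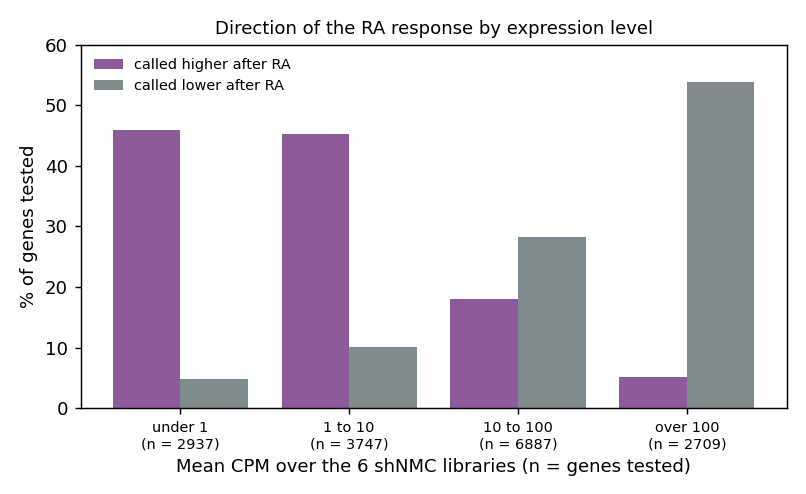
Share of genes tested that were called higher (purple) or lower (grey) after RA in shNMC cells, in percent, by mean CPM over the 6 libraries, with TMM scaling. Under 1 CPM 46.0% of genes were higher and 4.80% lower, and over 100 CPM 5.17% were higher and 53.9% lower.

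The genes that take up and store retinol rose together. Of 14 genes of retinol handling and RA synthesis, 9 rose and 1 fell, with a median log2 change of 1.49 beside 0.02 over all genes tested. Stra6, the receptor that takes retinol from its plasma carrier, stood at 30.3, 28.6 and 20.2 CPM after RA and 1.52, 2.56 and 1.62 CPM in mESCs (log2 3.79, SE 0.47, edgeR adjusted p = 9e-07). Lrat, which esterifies retinol for storage, stood at 4.24, 3.603 and 4.49 CPM after RA and 0.644, 0.551 and 0.811 CPM in mESCs (log2 2.62, SE 0.19, edgeR adjusted p = 4.3e-10). For each of these genes the 3 RA libraries lay above the 3 mESC libraries. Dhrs3, which reduces retinaldehyde back to retinol, had the largest rise of the group among genes with more than 3 reads in each condition. It stood at 23.2, 21.7 and 19.1 CPM after RA and 1.14, 0.964 and 0.787 CPM in mESCs (log2 4.46, SE 0.21, edgeR adjusted p = 9.4e-13). The secreted carrier gene Rbp4 and the retinol dehydrogenase gene Rdh12 also rose, by log2 1.42 and 1.49.

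Neither of the main enzymes that make RA in the embryo passed the test. Rdh10, the main enzyme of the first oxidation in the embryo, stood at 6.85, 6.66 and 6.05 CPM after RA and 6.12, 5.39 and 5.92 CPM in mESCs (edgeR adjusted p = 0.53). Aldh1a2, the main enzyme of the second oxidation in the early embryo, stood at 7.72, 8.56 and 5.49 CPM after RA and 6.54, 7.08 and 6.24 CPM in mESCs (edgeR adjusted p = 0.7). The libraries overlapped for both genes. Aldh1a3 had log2 0.82 with SE 0.36 and also missed the test (edgeR adjusted p = 0.06), which it passed with library totals. Aldh1a1, the paralogue best known from liver and eye, had 14 reads in the 3 RA libraries together against 0 in the 3 mESC libraries, at least 3.93-fold higher against a floor of 3 reads over the group, and its call (edgeR adjusted p = 0.016) rests on those few reads. Of the other retinol and retinaldehyde enzymes Rdh14 rose by 0.41 and Rdh11 fell by 0.39 on the log2 scale, with edgeR adjusted p = 0.041 and 0.033. Dhrs9 was called higher with 9 reads in the 3 RA libraries together against 1 in the 3 mESC libraries, a ratio of 7.57 (95% counting interval 1.05 to 332). Bcmo1, which cleaves carotene, was not called. Rdh11 lost its call without each of the 6 libraries in turn (edgeR adjusted p = 0.053 to 0.083) and with library totals (0.46). Rdh14 lost it without RA replicate 1 or 2 or mESC replicate 2 or 3 (0.091 to 0.16), and Dhrs9 without RA replicate 3 or mESC replicate 1 or 2 (0.09 to 0.13).

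The genes that bind and break down RA rose, apart from Crabp1 and Fabp5. Cyp26a1 stood at 362, 377 and 259 CPM after RA and 1.56, 1.44 and 1.30 CPM in mESCs (log2 7.85, SE 0.32, edgeR adjusted p = 1.6e-13). Its paralogue Cyp26b1 stood at 12.1, 12.6 and 9.37 CPM after RA and 0.747, 0.551 and 0.664 CPM in mESCs (log2 4.11, SE 0.29, edgeR adjusted p = 4.4e-10). Crabp2, which delivers RA to the receptors, stood at 27.2, 24.4 and 9.91 CPM after RA and 2.72, 2.97 and 2.19 CPM in mESCs (log2 2.96, SE 0.29, edgeR adjusted p = 5e-08), while Crabp1, which is linked to RA turnover, overlapped between groups at 16.5, 14.5 and 15.7 CPM after RA and 12.96, 10.2 and 14.8 CPM in mESCs. Crabp1 was called higher with library totals (log2 0.54, edgeR adjusted p = 0.021). RA replicate 3 had the lowest Cyp26a1 of the RA libraries, and all 3 lay far above the mESC libraries. The fatty acid and RA carrier gene Fabp5 was not called. Cyp26c1 did not pass the filter on low counts.

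Receptor genes split in both directions. Rarb, itself a target of RA receptors, stood at 40.9, 39.5 and 29.8 CPM after RA and 1.79, 1.40 and 1.47 CPM in mESCs (log2 4.56, SE 0.20, edgeR adjusted p = 3.2e-13). Rarg, an isotype much studied in stem cell cultures, fell to 163, 155 and 195 CPM after RA, against 246, 268 and 251 CPM in mESCs (log2 -0.58, SE 0.13, edgeR adjusted p = 0.00079), and its log2 change was -0.33 with library totals. Rara was not called, at 66.0, 63.8 and 82.5 CPM after RA and 60.3, 54.9 and 64.8 CPM in mESCs. Among the RXR partners Rxra rose by 0.50 and Rxrg by 0.78 on the log2 scale, with edgeR adjusted p = 0.038 and 0.025. Rxrb was not called, but passed with library totals (log2 0.30, edgeR adjusted p = 0.0068). Rxra lost its call without each library in turn but mESC replicate 3 (edgeR adjusted p = 0.056 to 0.12), and Rxrg without RA replicate 1 or 2 or mESC replicate 1 or 3 (0.068 to 0.1). Of 13 corepressors and coactivators of nuclear receptors 1 rose and 4 fell, against 3 and 2 with library totals. Nrip1, a ligand-dependent corepressor, rose to 35.5, 38.4 and 58.8 CPM, against 10.1, 7.40 and 9.78 CPM in mESCs (log2 2.28, SE 0.24, edgeR adjusted p = 8.9e-08). Ncor1, the corepressor of unliganded RAR, fell by 0.63, and Nr0b1 (Dax1), a repressor of other nuclear receptors that is high in mESCs, fell by 2.37 on the log2 scale.

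**Figure D2:**
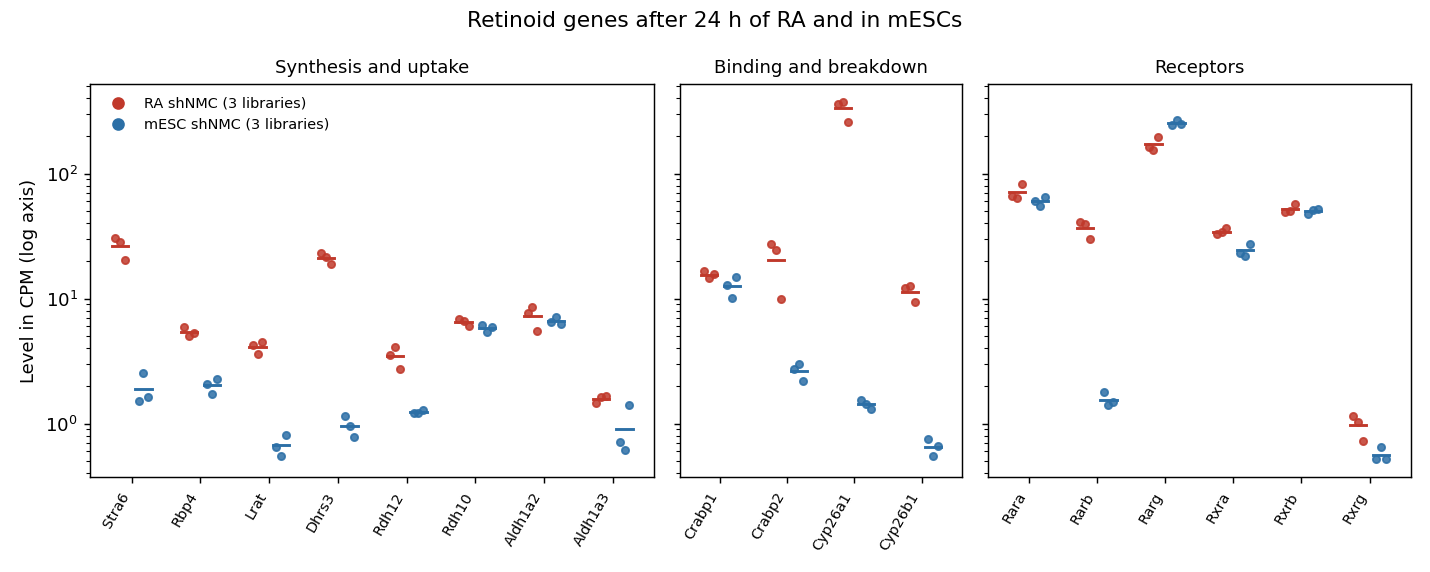
Level in CPM on a log axis of retinoid genes in each of the 3 RA libraries (red) and the 3 mESC libraries (blue), with a bar at the mean. Values under 0.05 CPM are drawn at 0.05. Stra6, Lrat, Dhrs3, Crabp2, Cyp26a1, Cyp26b1 and Rarb are separated between the groups, while Rdh10, Aldh1a2, Crabp1, Rara and Rxrb overlap.

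Of 26 other nuclear receptors 12 rose and 6 fell, against 17 and 5 with library totals. Nr6a1 (germ cell nuclear factor), which represses Pou5f1 during differentiation, stood at 244, 228 and 276 CPM after RA and 145, 139 and 139 CPM in mESCs (log2 0.82, SE 0.16, edgeR adjusted p = 0.00027). Vdr, the vitamin D receptor, and Esrrg rose by log2 1.66 and 3.58. Esrrb and Nr5a2, nuclear receptors of the pluripotency network, fell by 1.84 and 1.45 on the log2 scale, and Nr1d2 of the clock by 0.68.

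Of 21 genes known to be induced by RA in stem cell cultures 14 rose and 1 fell, with a median log2 change of 2.51. Zfp703, a zinc finger repressor, stood at 43.6, 45.4 and 26.8 CPM after RA and 0.436, 0.433 and 0.393 CPM in mESCs (log2 6.51, SE 0.34, edgeR adjusted p = 5e-12). Stra8, the RA-induced gene that starts meiosis in germ cells, was among the 5 genes with the largest gain in CPM, a measure not adjusted for length. It stood at 1380, 1266 and 968 CPM after RA and 81.0, 62.7 and 77.9 CPM in mESCs (log2 4.03, SE 0.20, edgeR adjusted p = 3.1e-12). The caudal homeobox gene Cdx1 stood at 58.9, 59.2 and 74.4 CPM after RA and 7.62, 6.57 and 8.70 CPM in mESCs (log2 3.07, SE 0.17, edgeR adjusted p = 1.4e-11). For all 3 genes every RA library lay above every mESC library. Lefty1 rose by 2.51 and Dhrs3 belongs to this list too. The only member called lower was Gbx2, at log2 -0.62 (edgeR adjusted p = 0.034). It lost its call without RA replicate 2 or 3 or any mESC library (0.053 to 0.17) and with library totals (0.2).

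Hox genes, which set position along the body axis and lie in 4 clusters, gave 6 of the 8 largest rises among genes of at least 5 CPM in a group. All 11 HoxA and all 10 HoxB genes tested rose, with median log2 changes of 4.46 and 6.80. Of 8 HoxC genes 6 rose and 1 fell, with a median of 2.33. Of 9 HoxD genes 8 rose and 0 fell, with a median of 1.58. Of all genes tested, 46.0% of those under 1 CPM and 45.3% of those from 1 to 10 CPM rose. Whether the counting used strand is not given in the sources used here, so reads of a Hox gene and of an overlapping antisense transcript cannot be told apart. The antisense gene Hoxa11as, listed apart, had log2 2.62, near Hoxa11 at 2.003. Hoxa11 lost its call without mESC replicate 1 or 2 (edgeR adjusted p = 0.086 and 0.05).

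Genes at the 3′ end of the HoxB cluster are known RA targets in the hindbrain. Hoxb1 stood at 47.0, 43.0 and 21.6 CPM after RA and 0.0415, 0.177 and 0.147 CPM in mESCs (log2 8.22, SE 0.40, edgeR adjusted p = 1.6e-12). Hoxb2 stood at 27.3, 24.97 and 13.8 CPM after RA and 0, 0.0787 and 0.0737 CPM in mESCs (log2 8.70, SE 0.55, edgeR adjusted p = 8.7e-11). Hoxb4 stood at 29.7, 27.6 and 20.0 CPM after RA and 0.249, 0.354 and 0.295 CPM in mESCs (log2 6.41, SE 0.35, edgeR adjusted p = 7.9e-12). Each of them had under 1 CPM in every mESC library, and RA replicate 3 was the lowest RA library for all 3. Hoxb5 had 1713 reads in the 3 RA libraries together against 1 in the 3 mESC libraries, a ratio of 1442 (95% counting interval 258 to 56970). Hoxb6 had 618 reads in the 3 RA libraries together against 3 in the 3 mESC libraries, a ratio of 173 (95% counting interval 59.0 to 843). These intervals cover counting error only. Hoxb7, Hoxb9 and Hoxb13 rose by log2 3.78, 3.20 and 3.598. Hoxb9 stood at 32.1, 33.4 and 24.9 CPM after RA and 3.28, 3.30 and 3.24 CPM in mESCs, and Hoxb13, which lies apart at the 5′ end, at 10.2, 11.5 and 14.2 CPM after RA and 1.06, 1.12 and 0.762 CPM in mESCs. Hoxb3 and Hoxb8 rose by 7.12 and 6.47.

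In the HoxA cluster Hoxa5 stood at 30.7, 29.5 and 19.1 CPM after RA and 0.187, 0.138 and 0.197 CPM in mESCs (log2 7.24, SE 0.42, edgeR adjusted p = 1.7e-11) and had the largest change of the cluster. Hoxa2, Hoxa3 and Hoxa4 rose by log2 6.48, 5.98 and 4.46. Hoxa6 had 104 reads in the 3 RA libraries together against 3 in the 3 mESC libraries, a ratio of 29.2 (95% counting interval 9.71 to 144). From Hoxa7 to Hoxa13 the rises were 3.28 for Hoxa7, 4.98 for Hoxa9, 3.81 for Hoxa10, 2.003 for Hoxa11 and 1.83 for Hoxa13. Hoxa13 stood at 0.268, 0.355 and 0.317 CPM after RA and 0.0623, 0.0984 and 0.0983 CPM in mESCs, and its RA and mESC libraries did not overlap.

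HoxC and HoxD genes had smaller median changes. Hoxc4 stood at 3.09, 2.89 and 1.73 CPM after RA and 0.457, 0.570 and 0.393 CPM in mESCs (log2 2.43, SE 0.29, edgeR adjusted p = 7.6e-07). Hoxc5 rose by 4.37, Hoxc6 by 2.49, Hoxc8 by 2.24, Hoxc9 by 2.66 and Hoxc10 by 1.11 on the log2 scale. Hoxc12 was the only Hox gene called lower, at 0.143, 0.0532 and 0.0931 CPM after RA and 0.581, 0.413 and 0.270 CPM in mESCs (log2 -2.11, SE 0.45, edgeR adjusted p = 0.00054), which is few reads in either group. Hoxc13 was not called, at 6.27, 7.63 and 6.33 CPM after RA and 5.38, 5.33 and 5.51 CPM in mESCs. In the HoxD cluster Hoxd8 stood at 5.63, 5.56 and 4.80 CPM after RA and 1.04, 1.02 and 0.983 CPM in mESCs (log2 2.39, SE 0.37, edgeR adjusted p = 1.6e-05). Hoxd1, the 3′ member, stood at 3.07, 2.89 and 2.53 CPM after RA and 1.204, 0.806 and 1.204 CPM in mESCs (log2 1.41, SE 0.24, edgeR adjusted p = 5.5e-05), and Hoxd13, the 5′ member, at 8.94, 9.71 and 9.09 CPM after RA and 3.53, 4.31 and 3.32 CPM in mESCs (log2 1.31, SE 0.37, edgeR adjusted p = 0.0059). The ends of the HoxD cluster thus had similar changes. Hoxd3, Hoxd4, Hoxd9, Hoxd10 and Hoxd12 rose by 1.53, 1.19, 2.99, 2.54 and 3.29, and Hoxd11 missed the test (edgeR adjusted p = 0.092). Calls that rested on single libraries were those of Hoxc8 (edgeR adjusted p = 0.063 without RA replicate 1) and Hoxd4 (0.077 without mESC replicate 1). Hoxc10 lost its call without RA replicate 1 or 2 or mESC replicate 2 or 3 (0.067 to 0.12), and Hoxd3 without RA replicate 1 or 2 or any mESC library (0.069 to 0.13).

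**Figure D3:**
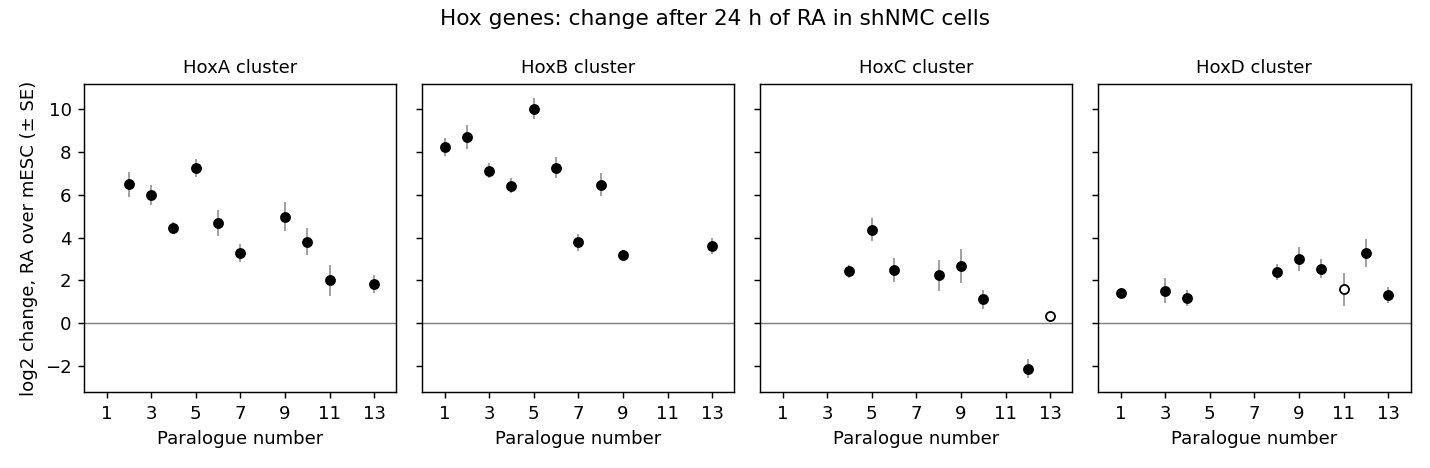
Change of the Hox genes reported (log2, RA over mESC, bars ± SE) against its paralogue number, with a panel for each of the 4 clusters. Filled points passed the test and open points (Hoxc13, Hoxd11) did not; Hoxc12 alone lies below 0.

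Most homeodomain partners of Hox proteins rose too. Of 9 Meis, Pbx and Pknox genes 7 rose and 1 fell. Meis2 stood at 94.1, 98.0 and 54.5 CPM after RA and 6.93, 8.18 and 5.80 CPM in mESCs (log2 3.56, SE 0.33, edgeR adjusted p = 2.4e-08). Meis1, Pknox2, Meis3, Pbx2 and Pbx3 rose by log2 2.67, 2.25, 1.90, 1.23 and 0.97. Pbx2 and Pbx3 were already read in mESCs, at 48.2 ± 1.82 and 11.3 ± 1.16 CPM (mean ± SD, n = 3). Pknox1 fell by 0.54, and Pbx4 was not called.

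Most other families of developmental transcription factors had more rises than falls. The same held for scarce genes of any kind, as 46.0% rose and 4.80% fell under 1 CPM. From 1 to 10 CPM it was 45.3% and 10.1%. Of 38 homeobox genes of families outside the Hox clusters, such as Irx, Dlx, Msx, Lhx and Nkx, 26 rose and 3 fell. Their median log2 change was 1.92. Dlx3 stood at 4.41, 4.90 and 3.65 CPM after RA and 0.664, 0.315 and 0.983 CPM in mESCs (log2 2.74, SE 0.36, edgeR adjusted p = 1.7e-06), and Nkx6-3 at 0.661, 0.462 and 0.894 CPM after RA and 4.13, 4.62 and 4.62 CPM in mESCs (log2 -2.73, SE 0.48, edgeR adjusted p = 7.3e-05). Of 16 T-box genes 11 rose and 2 fell, of 7 Pax genes 5 rose and 0 fell, and of 18 Sox genes 10 rose and 1 fell. The only Sox gene that fell was Sox2. Sox3, its close paralogue in neural progenitors, stood at 11.4, 12.6 and 8.29 CPM after RA and 1.35, 1.77 and 1.499 CPM in mESCs (log2 2.80, SE 0.28, edgeR adjusted p = 4.9e-08). Of 35 Forkhead genes 13 rose and 7 fell, against 19 and 2 with library totals. Foxa1, a pioneer factor of endoderm, stood at 23.9, 23.4 and 13.3 CPM after RA and 1.99, 1.79 and 1.79 CPM in mESCs (log2 3.44, SE 0.31, edgeR adjusted p = 1.7e-08), while Foxd3, a repressor needed in pluripotent cells, stood at 0.536, 0.568 and 1.02 CPM after RA and 15.8, 24.98 and 15.6 CPM in mESCs (log2 -4.73, SE 0.38, edgeR adjusted p = 2.5e-09). Of 26 Klf and Sp genes 7 rose and 12 fell, against 8 and 9 with library totals. Those that fell included Klf5 (-2.37), Klf4 (-1.98) and Klf8 (-0.999).

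Most naive and core pluripotency genes fell. Of 26 naive-state genes 0 rose and 21 fell, with a median log2 change of -1.44, against 1 and 16 with library totals. Of 13 core genes 0 rose and 9 fell, with a median of -0.66. Over all genes above 100 CPM, where many of these lie, 53.9% fell. Pou5f1 (Oct4) stood at 412, 417 and 498 CPM after RA and 881, 917 and 936 CPM in mESCs (log2 -1.04, SE 0.12, edgeR adjusted p = 2.9e-07). Sox2 stood at 459, 481 and 472 CPM after RA and 821, 828 and 765 CPM in mESCs (log2 -0.77, SE 0.076, edgeR adjusted p = 4.1e-08). Nanog stood at 20.6, 24.4 and 29.1 CPM after RA and 64.7, 65.0 and 57.4 CPM in mESCs (log2 -1.34, SE 0.17, edgeR adjusted p = 1.3e-06). All 3 fell, and RA replicate 3 was the highest RA library for Pou5f1 and Nanog but not for Sox2. Utf1, a chromatin protein of undifferentiated cells, stood at 18.4, 16.5 and 19.5 CPM after RA and 83.8, 75.8 and 89.9 CPM in mESCs (log2 -2.20, SE 0.22, edgeR adjusted p = 5.6e-08). Tdh, the threonine dehydrogenase on which mESC metabolism depends, had the largest fall of the genes named, with 9.01, 8.22 and 12.2 CPM after RA and 271, 373 and 275 CPM in mESCs (log2 -4.97, SE 0.28, edgeR adjusted p = 1.4e-11). Mycn and Tet1 fell by 3.12 and 2.18 on the log2 scale.

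Genes of the primed state, which follows the naive state in the embryo, did not move as a group. Of 15 such genes 5 rose and 2 fell. Otx2 had 7.35, 7.72 and 3.59 CPM after RA and 9.09, 13.2 and 8.33 CPM in mESCs (edgeR adjusted p = 0.092), and Fgf5, the marker most used for this state, had 0.322, 0.177 and 0.391 CPM after RA and 0.353, 0.610 and 0.442 CPM in mESCs (edgeR adjusted p = 0.24). Neither passed the test, and Fgf5 stayed below 1 CPM. Sox3 and Sall2 rose by 2.80 and 2.20, and Dnmt3b fell by 1.03.

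Of 17 genes of the LIF and Stat3 pathway 3 rose and 11 fell. At the receptor, Lifr stood at 74.3, 69.9 and 82.7 CPM after RA and 202, 186 and 188 CPM in mESCs and Il6st at 84.1, 87.0 and 118 CPM after RA and 184, 186 and 178 CPM in mESCs, and both fell (log2 -1.34 and -0.92). The kinase genes went the other way, as Jak2 stood at 35.7, 38.2 and 34.3 CPM after RA and 19.4, 14.1 and 18.7 CPM in mESCs (log2 1.05, SE 0.16, edgeR adjusted p = 9.8e-06) and Jak1 rose by 0.29 (edgeR adjusted p = 0.0066, and 0.057 without mESC replicate 2). Stat3 itself stood at 74.7, 75.6 and 80.0 CPM after RA and 178, 176 and 179.7 CPM in mESCs (log2 -1.21, SE 0.082, edgeR adjusted p = 2.2e-10). Its feedback target Socs3 had the largest fall of the list, at 14.2, 15.6 and 15.5 CPM after RA and 121, 86.2 and 135 CPM in mESCs (log2 -2.92, SE 0.27, edgeR adjusted p = 1.8e-08). Klf4, a Stat3 target that maintains naive cells, stood at 42.1, 46.0 and 50.8 CPM after RA and 186, 174 and 186 CPM in mESCs (log2 -1.98, SE 0.13, edgeR adjusted p = 1.4e-10). The kinase gene Pim1 rose by 0.55 although Pim3 fell by 1.47. Lif itself was not called, but passed with library totals (edgeR adjusted p = 0.032).

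**Figure D4:**
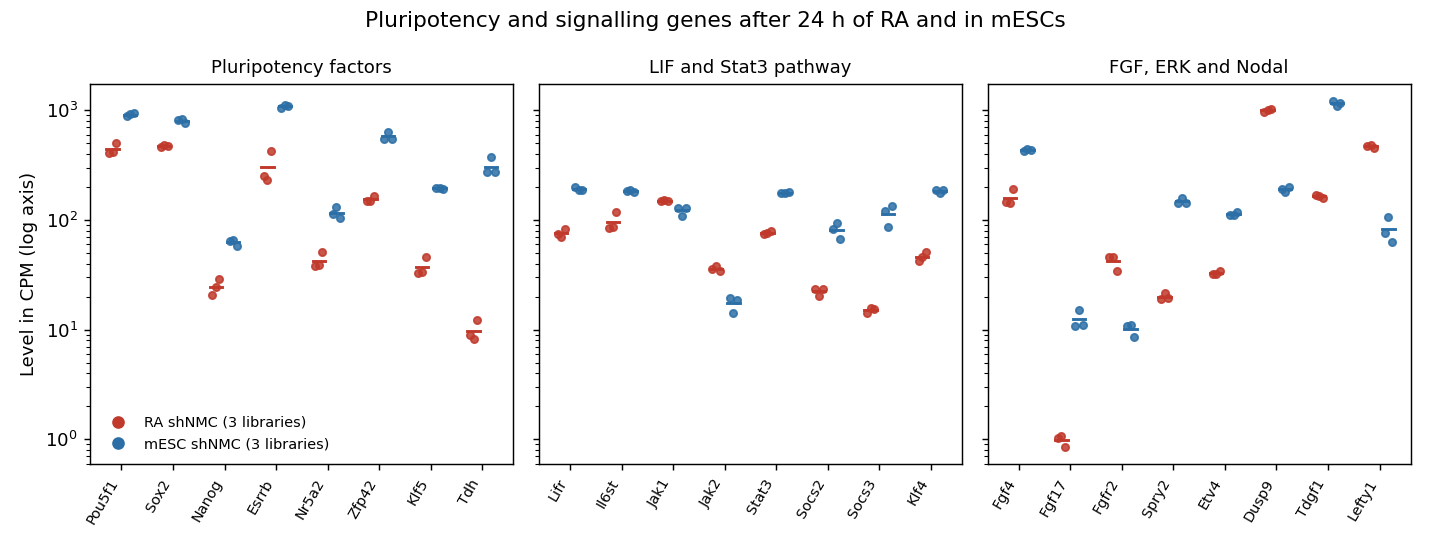
Level in CPM on a log axis of pluripotency, LIF pathway and FGF, ERK or Nodal genes in each of the 3 RA libraries (red) and the 3 mESC libraries (blue), with a bar at the mean. Among genes drawn, Jak1, Jak2, Fgfr2, Dusp9 and Lefty1 are higher after RA and the rest lower.

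FGF signalling through ERK drives mESCs out of the naive state. Of 20 FGF ligands and receptors 8 rose and 4 fell. The ligand genes Fgf4, Fgf17 and Fgf10 fell. Fgf4, the main FGF of mESCs, stood at 147, 143 and 190.1 CPM after RA and 425, 440.2 and 431 CPM in mESCs (log2 -1.43, SE 0.15, edgeR adjusted p = 7.5e-08). Fgf17 stood at 1.04, 1.06 and 0.857 CPM after RA and 10.8, 15.3 and 11.1 CPM in mESCs (log2 -3.65, SE 0.39, edgeR adjusted p = 1.3e-07). Among receptors Fgfr2 stood at 45.8, 46.0 and 34.3 CPM after RA and 10.8, 11.1 and 8.63 CPM in mESCs (log2 2.04, SE 0.32, edgeR adjusted p = 2.1e-05), and Fgfr3 and Fgfr1 rose by 1.34 and 0.52. Of 15 feedback inhibitors and Ets factors of the ERK pathway 3 rose and 9 fell, against 3 and 6 with library totals. Spry2 stood at 19.2, 21.7 and 19.3 CPM after RA and 144, 157 and 143 CPM in mESCs (log2 -2.89, SE 0.095, edgeR adjusted p = 3.8e-15), Spry4 at 28.4, 26.7 and 23.9 CPM after RA and 174, 238 and 159 CPM in mESCs (log2 -2.85, SE 0.25, edgeR adjusted p = 1e-08) and Etv4 at 32.4, 31.9 and 34.5 CPM after RA and 111, 111 and 119 CPM in mESCs (log2 -1.78, SE 0.15, edgeR adjusted p = 5.9e-09). Dusp9, an ERK phosphatase kept high by BMP in mESCs, was also among the 5 largest gains in CPM, at 958, 1016 and 1029 CPM after RA and 193, 178 and 201 CPM in mESCs (log2 2.39, SE 0.15, edgeR adjusted p = 5.9e-11). Among immediate early genes 8 of 20 rose and 7 fell, against 8 and 5 with library totals. Egr1, which ERK induces, stood at 11.2, 11.4 and 3.72 CPM after RA and 30.7, 161 and 31.8 CPM in mESCs (log2 -3.09, SE 0.81, edgeR adjusted p = 0.0035). One mESC library was far above the others, and without mESC replicate 2 the log2 change was -1.83 (edgeR adjusted p = 0.057). Jun moved the other way, at 23.8, 29.3 and 12.2 CPM after RA and 2.62, 3.21 and 3.64 CPM in mESCs (log2 2.79, SE 0.38, edgeR adjusted p = 3.5e-06).

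Of 18 genes of the Nodal pathway 6 rose and 5 fell, against 6 and 3 with library totals. Tdgf1 (Cripto), the Nodal coreceptor, stood at 169.5, 165 and 157 CPM after RA and 1216, 1097 and 1167 CPM in mESCs (log2 -2.82, SE 0.19, edgeR adjusted p = 1.8e-10). Lefty1, a secreted Nodal inhibitor, stood at 467, 485 and 454 CPM after RA and 76.4, 107 and 63.2 CPM in mESCs (log2 2.51, SE 0.32, edgeR adjusted p = 1.5e-06). Coreceptor and inhibitor thus moved in opposite directions, and Lefty2 was not called. Of 20 genes of the BMP pathway 9 rose and 1 fell. Id2, an inhibitor of bHLH factors and BMP target, stood at 211, 187 and 106 CPM after RA and 16.2, 32.8 and 14.8 CPM in mESCs (log2 2.98, SE 0.38, edgeR adjusted p = 1.5e-06). Id1 rose by 1.55, and the BMP target homeobox genes Msx1 and Msx2 by 3.40 and 2.37. The ligand gene Bmp4 fell to 5.42, 5.396 and 7.13 CPM, against 21.5, 26.4 and 22.9 CPM in mESCs (log2 -1.98, SE 0.24, edgeR adjusted p = 9.6e-07).

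Of 34 Wnt genes 13 rose and 5 fell. Wnt4 and Sp8 rose by log2 2.96 and 2.01. The receptor gene Fzd5 fell to 50.9, 52.8 and 61.8 CPM, against 226, 225 and 225 CPM in mESCs (log2 -2.03, SE 0.11, edgeR adjusted p = 7.9e-12), and the antagonist gene Sfrp1 fell by 1.64. Axin2, a widely used Wnt readout, was not called and overlapped between groups at 19.3, 20.0 and 23.7 CPM after RA and 20.1, 17.5 and 21.1 CPM in mESCs. Other Frizzled genes rose, with log2 1.72 for Fzd2 and 2.24 for Fzd1. Of 14 Hedgehog genes 7 rose and 1 fell. Ptch1, the receptor and a target, stood at 158, 191 and 209 CPM after RA and 95.4, 99.9 and 95.2 CPM in mESCs (log2 0.94, SE 0.31, edgeR adjusted p = 0.015, and 0.05 without RA replicate 3), and the coreceptor gene Gas1 rose by 2.31. Gli1, the other standard target, was not called, at 85.8, 89.1 and 99.4 CPM after RA and 111, 118 and 117 CPM in mESCs. Gli2 fell by 1.33 on the log2 scale. Of 21 Notch genes 3 rose and 3 fell, and Hes1 fell by 1.26.

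Many neural, mesoderm and trophectoderm genes rose, and their counts are to be read beside those of scarce genes. Of all genes tested, 46.0% of those under 1 CPM and 45.3% of those from 1 to 10 CPM rose. Of 32 neural genes 15 rose and 4 fell, a share of rises near these. Of 23 streak and mesoderm genes 16 rose and 1 fell, and of 17 trophectoderm genes 11 rose and 1 fell. Of 27 extraembryonic endoderm genes 5 rose and 2 fell, smaller shares than the 27.3% and 24.1% of all genes tested. Among neural genes the hindbrain and dorsal spinal cord gene Olig3 stood at 3.45, 3.76 and 0.913 CPM after RA and 0.104, 0.0984 and 0.0492 CPM in mESCs (log2 4.94, SE 0.55, edgeR adjusted p = 2.6e-07) and Irx3 at 2.22, 2.52 and 1.90 CPM after RA and 0.125, 0.138 and 0.246 CPM in mESCs (log2 3.71, SE 0.36, edgeR adjusted p = 4e-08). Sox1, the standard marker of early neural cells, and Pax6 did not pass the test, at log2 0.27 and 0.36. Neurod1, a neuronal bHLH factor, fell by 3.17 on the log2 scale. Gata4 and Gata6, which mark endoderm, had log2 0.63 and 1.02 and also missed it. They had edgeR adjusted p = 0.33 and 0.066, although for both every RA library lay above every mESC library. Gata6 and Pax6 passed with library totals. Gata4, Gata6 and Pax6 were called higher in a fit of the 6 shNMC libraries alone and in one of 18 libraries of 3 lines. Eomes, shared by mesoderm and trophectoderm, stood at 12.8, 12.8 and 12.3 CPM after RA and 6.31, 5.31 and 5.80 CPM in mESCs (log2 1.12, SE 0.25, edgeR adjusted p = 0.00065). Among forebrain and midbrain regulators 6 of 13 rose, led by Lhx2 at log2 2.39. Summed trophectoderm markers were 4.79 to 8.54 CPM after RA and 1.32 to 1.67 CPM in mESCs, and extraembryonic endoderm markers 59.2 to 79.4 and 37.5 to 51.0 CPM. The part that cells of these types play in the counts was not tested.

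Of 11 subunits of Polycomb repressive complex 2, which methylates histone H3 at lysine 27, 2 rose and 9 fell. Eed stood at 180.1, 177 and 173 CPM after RA and 478, 552 and 438 CPM in mESCs (log2 -1.47, SE 0.10, edgeR adjusted p = 1.9e-10). The catalytic subunit gene Ezh2 and Suz12 fell by 0.48 and 0.63 on the log2 scale. With library totals in place of TMM 2 rose and 5 fell. In Polycomb repressive complex 1 paralogues moved in both directions, as 10 of 21 genes rose and 5 fell. Among the chromodomain genes Cbx8 stood at 2.57, 2.45 and 2.44 CPM after RA and 0.208, 0.216 and 0.369 CPM in mESCs (log2 3.24, SE 0.36, edgeR adjusted p = 2.8e-07), and Cbx2 rose by 0.43. Cbx7, the main chromodomain gene of mESCs, stood at 222, 232 and 244 CPM after RA and 269.6, 309 and 287 CPM in mESCs (log2 -0.31, SE 0.081, edgeR adjusted p = 0.003) and lost its call with library totals. Among the Pcgf genes Bmi1 stood at 40.1, 40.9 and 31.9 CPM after RA and 15.7, 17.4 and 12.9 CPM in mESCs (log2 1.29, SE 0.38, edgeR adjusted p = 0.0067), while Pcgf6 and Pcgf2 fell by 0.57 and 0.61. The E3 ligase gene Rnf2 (Ring1b) was not called at 204, 199 and 196 CPM after RA and 266, 277 and 240.0 CPM in mESCs (edgeR adjusted p = 0.27). It was called lower in a fit of the 6 shNMC libraries alone and in one of 18 libraries of 3 lines. Phc1 fell and Phc2 rose, with log2 -0.99 and 0.89. Among Mediator kinase genes Med12l, the paralogue of Med12, rose by 1.14, and the other 6 tested were not called, whereas 3 of the list rose with library totals.

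The DNA methylation machinery also changed paralogue by paralogue, with 5 of 17 genes higher and 7 lower, against 7 and 6 with library totals. Tet1, which oxidises methylcytosine and is the main Tet gene of mESCs, stood at 237, 253 and 408 CPM after RA and 1417, 1276 and 1375 CPM in mESCs (log2 -2.18, SE 0.17, edgeR adjusted p = 1.9e-09). Tet3 stood at 46.5, 44.4 and 48.5 CPM after RA and 25.5, 24.1 and 26.1 CPM in mESCs (log2 0.88, SE 0.084, edgeR adjusted p = 3e-08). Tet2 fell by 1.05. Dnmt3l, the cofactor of the de novo enzymes, and Uhrf1, which recruits the maintenance enzyme, fell by 1.16 and 0.88, while Dnmt3a rose by 0.42.

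No gene of the replication and mitosis list rose. Of 20 members 12 fell, and with library totals 2 rose and 7 fell. Cdt1, which licenses replication origins, stood at 93.7, 95.6 and 99.6 CPM after RA and 170.3, 178 and 174 CPM in mESCs (log2 -0.85, SE 0.082, edgeR adjusted p = 3.2e-08). Among 21 G1 genes 5 rose and 6 fell, against 6 and 5 with library totals. Those that rose included the CDK inhibitor genes Cdkn1c (1.46) and Cdkn2c (1.61), and those that fell included Cdk6 (-1.95) and Ccnd1 (-1.60). Mycn stood at 10.97, 11.1 and 9.52 CPM after RA and 93.7, 96.2 and 84.8 CPM in mESCs (log2 -3.12, SE 0.20, edgeR adjusted p = 1.5e-10), and Myc fell by 2.63. Of 12 host genes of small nucleolar RNAs 1 rose and 8 fell, against 1 and 5 with library totals. Among those that fell was Gas5, at 200.2, 171 and 163 CPM after RA and 319.7, 374 and 289 CPM in mESCs (log2 -0.88, SE 0.16, edgeR adjusted p = 0.00013). Of 84 ribosomal protein genes 1 rose and 20 fell, against 3 and 3 with library totals, and their near-identical copies make these counts uncertain. Of 75 oxidative phosphorylation genes 5 rose and 14 fell, but 25 and 0 with library totals, so their direction rests on the scaling. Of 21 genes listed for glycolysis and the use of its product 1 rose and 6 fell, against 4 and 4 with library totals. Among those that fell Pdk1, which inhibits pyruvate dehydrogenase, stood at 125, 128 and 136 CPM after RA and 369, 335 and 345 CPM in mESCs (log2 -1.43, SE 0.24, edgeR adjusted p = 4e-05) and Hk2 fell by 1.25. The largest losses in CPM included those of Tet1, the ubiquitin ligase gene Nedd4 and the chaperone gene Hsp90ab1, which stood at 5264, 5172 and 5399 CPM after RA and 7013, 7403 and 6767 CPM in mESCs (log2 -0.42, SE 0.069, edgeR adjusted p = 3.4e-05).

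Most collagen and protocadherin genes rose. Of 42 collagen genes 30 rose and 0 fell, and of 49 protocadherin genes 34 rose and 2 fell. Their median log2 changes were 1.39 and 1.39, the second 1.35 with 4 genes at 0 reads set at their bound. Among all genes tested 46.0% of those under 1 CPM and 45.3% of those from 1 to 10 CPM rose. Col4a5, a basement membrane collagen gene, stood at 7.56, 8.79 and 8.10 CPM after RA and 1.72, 1.02 and 1.94 CPM in mESCs (log2 2.39, SE 0.27, edgeR adjusted p = 3.5e-07). Of 24 integrin and laminin genes, which encode receptors and partners of such matrix, 7 rose and 4 fell, beside 27.3% and 24.1% of all genes tested. Of 16 fibroblast and mesenchyme genes, some of them collagens, 10 rose and 1 fell. Col1a1, a fibrillar collagen gene, stood at 3.65, 4.10 and 3.05 CPM after RA and 0.997, 0.649 and 1.40 CPM in mESCs (log2 1.84, SE 0.23, edgeR adjusted p = 1.3e-06), and Col1a2 rose by 1.75. The mesenchymal factor gene Twist2 had 47 reads in the 3 RA libraries together against 1 in the 3 mESC libraries, a ratio of 39.5 (95% counting interval 6.76 to 1595). Thy1, a surface marker of fibroblasts and other cells, fell by 0.80 but lost its call with library totals (edgeR adjusted p = 0.065). The flat sum of fibroblast markers given above adds these genes together. The part that fibroblasts or feeder cells play in the collagen counts was not tested. Pcdh19, a nonclustered protocadherin gene of neural progenitors, stood at 11.7, 12.4 and 9.83 CPM after RA and 1.45, 1.34 and 1.25 CPM in mESCs (log2 3.06, SE 0.44, edgeR adjusted p = 6.1e-06). Of 19 Eph receptor and ephrin genes 12 rose and 1 fell. Efnb1, a ligand that sets tissue boundaries, stood at 42.3, 47.1 and 38.7 CPM after RA and 3.65, 4.17 and 4.33 CPM in mESCs (log2 3.40, SE 0.36, edgeR adjusted p = 1.2e-07), and Epha4, a receptor for such ligands, at 36.0, 36.3 and 40.3 CPM after RA and 134, 144 and 133 CPM in mESCs (log2 -1.87, SE 0.11, edgeR adjusted p = 1.8e-11). Of 35 axon guidance genes 16 rose and 5 fell. Among these the ligand gene Ntn1 stood at 19.6, 19.5 and 24.4 CPM after RA and 112, 143 and 109.5 CPM in mESCs (log2 -2.52, SE 0.20, edgeR adjusted p = 2.7e-09), and its receptor gene Dcc at 7.56, 6.55 and 3.35 CPM after RA and 1.68, 2.32 and 1.45 CPM in mESCs (log2 1.67, SE 0.44, edgeR adjusted p = 0.0033). Nrp1 rose by 2.46 and its paralogue Nrp2 fell by 2.10 on the log2 scale. Of 21 epithelial and mesenchymal genes 7 rose and 7 fell, against 10 and 4 with library totals. Among them Cdh3 and Grhl2, both of epithelium, fell by 1.86 and 1.71, and Zeb2 rose by 1.001.

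The response was set beside that of cells with shCdk8, a hairpin against the Mediator kinase gene Cdk8, in 3 RA and 3 mESC libraries that share no control with the shNMC libraries. There 4339 genes rose (26.7%) and 4083 fell (25.1%). The genes that rose in both lines numbered 3724, which is 83.9% of those in shNMC and 85.8% of those in shCdk8 cells. Those that fell in both numbered 3351, or 85.4% and 82.1%. Of 7076 genes called in both, 7075 had the same direction. Across the 16280 genes, which are not independent replicates, the log2 changes had Pearson's r = 0.924. The difference itself (shNMC minus shCdk8) passed the edgeR test for 6 genes (0.0369%). It passed for 27 with DESeq2 and for 38 with edgeR in a fit of the 12 libraries alone. With a block for replicate number in that fit it passed for 305 genes, so the count depends on the design. Same-numbered libraries correlated by 0.433 to 0.682 between the lines after RA and by -0.121 to 0.589 in mESCs, as residuals from group means. The labels name no pairing, and the main fit has no block. In the main fit an unadjusted edgeR p under 0.05 was reached by 493 of the 16280 genes. That is fewer than this threshold would be expected to pass if no gene differed. A difference that misses the test does not show that the lines respond alike. The exception to the shared direction was Il17rd, an inhibitor of FGF signalling, which fell in shNMC cells (log2 -0.27) and rose in shCdk8 cells (0.41). Its fall in shNMC cells lost its call without mESC replicate 2 (edgeR adjusted p = 0.096) and with library totals (0.85).

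**Figure D5:**
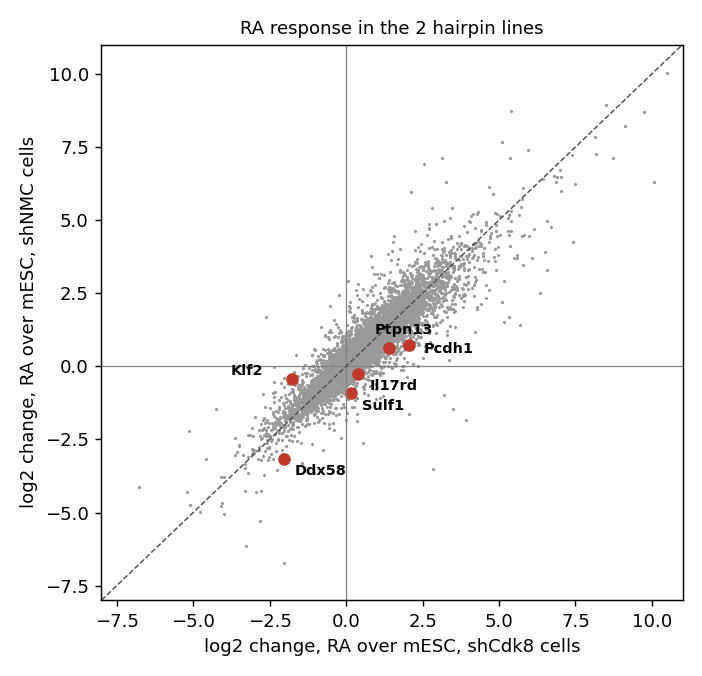
Change in shNMC cells against change in shCdk8 cells (log2, RA over mESC) for the 16280 genes tested, with the line of equal change dashed. Grey points are genes, and the 6 red points (Sulf1, Ddx58, Klf2, Pcdh1, Il17rd and Ptpn13) passed the test of the difference; Klf2 lies above the line and the other 5 below it.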

How the data were processed

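Per the labels, poly-A RNA of shNMC cells was sequenced in 3 RA and 3 mESC libraries. The authors deposited unscaled read counts by gene symbol. Build mm9 and the tools DESeq2 1.6.3, HTSeq 0.6.1p1, SAMtools 1.2, STAR 2.3.1z13 and bcl2fastq 1.8.4 are named, per the submitters' processing notes, without their roles. Which annotation was used, and whether counting was stranded, is not given in the sources used for this work. The 5 entries that name no gene were left out. Multiply aligned reads made up 44.8% to 48.4% in RA and 46.6% to 47.2% in mESC libraries of all entries counted, and reads in no feature 9.99% to 10.8% and 9.92% to 10.3%. Reads that align to several near-identical copies are thus outside the gene counts.

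Counts of all 24 libraries were fitted with edgeR 4.0.16 in R 4.3.3 (filterByExpr, TMM, robust quasi-likelihood F test, 1 mean per group, 16 residual degrees of freedom, common biological coefficient of variation 0.145), and 16280 of 22609 symbols were tested. Tests were two-sided, with a Benjamini-Hochberg adjusted p under 0.05 called. The pipeline was tested on simulated data in which few genes changed, as many up as down. That test cannot check the scaling of libraries. CPM use TMM-scaled library sizes and are not adjusted for gene length. The difference between lines is the interaction term. Promoters come from a RefSeq table of build GRCm38.p6 and were matched by symbol. The members, gene lists and tests were chosen with earlier results of these data known, so lists are described by counts, read beside the shares of all genes tested, with no set test. Genes were named by a rule. It takes the 8 largest rises and falls, the 5 largest CPM gains and losses, the 3 lowest p per list and direction, all members of the retinoid, Hox, Hox cofactor, Mediator kinase and Polycomb lists, some reference genes, genes with at most 3 mESC reads, and the 6 lowest p of the difference. Some of them are not reported here. Outside the rule, and chosen after their values were seen, are Ano1, Axin2, Ccnd1, Col1a1, Col1a2, Col4a5, Dcc, Dlk1, Dnmt3a, Dnmt3l, Egr1, Eomes, Gata4, Gata6, Gli1, Hoxa11as, Id1, Id2, Il6st, Klf8, Lefty2, Lif, Lifr, Msx1, Nr1d2, Nr6a1, Olig3, Pax6, Pcdh19, Pim3, Ppbp, Prokr2, Ptch1, Socs3, Sox1, Spry4, Tinagl1, Tnfsf13b and Twist2. The 4 groups with shMed12, shRing1b or no hairpin were used only for the fit, and the shZrf1 cells of the series text were not analysed here. No pair of replicates was alike within counting noise.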

Additional observations from a re-analysis of the deposited data

Results flagged for a closer look

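The RA response of 6 genes differed between shNMC and shCdk8 cells, by the edgeR test of the difference in log2 change (shNMC minus shCdk8, Benjamini-Hochberg adjusted over 16280 genes). Sulf1, which trims 6-O-sulfate from heparan sulfate chains, stood at 39.7, 37.8 and 33.1 CPM after RA and 67.3, 77.7 and 65.5 CPM in mESCs with shNMC, and at 88.9, 93.0 and 85.3 CPM after RA and 77.9, 78.2 and 82.1 CPM in mESCs with shCdk8. It fell in shNMC cells (log2 -0.93) and was not called in shCdk8 cells (log2 0.17), and the difference was -1.09 (SE 0.14, edgeR adjusted p = 0.0016). Ddx58 (RIG-I), a sensor of viral RNA, stood at 8.70, 8.57 and 8.92 CPM after RA and 76.1, 87.5 and 72.5 CPM in mESCs with shNMC, and at 25.6, 24.5 and 24.1 CPM after RA and 106, 98.3 and 101 CPM in mESCs with shCdk8. It fell in both lines, and the difference was -1.13 (SE 0.17, edgeR adjusted p = 0.0058). Klf2, a naive-state factor, stood at 131, 129 and 99.8 CPM after RA and 148, 197 and 139.5 CPM in mESCs with shNMC, and at 46.2, 42.5 and 52.4 CPM after RA and 179, 154 and 143 CPM in mESCs with shCdk8. Its fall was the smaller in shNMC cells, with a difference of 1.32 (SE 0.20, edgeR adjusted p = 0.0058). Its fall in shNMC cells, log2 -0.43, lost its call without RA replicate 3 (edgeR adjusted p = 0.085), without mESC replicate 2 (0.14) and with library totals (0.28).

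The other 3 differences lost their call under more of the settings. Pcdh1, a nonclustered protocadherin gene, stood at 6.85, 7.17 and 6.18 CPM after RA and 4.24, 3.23 and 4.89 CPM in mESCs with shNMC, and at 19.3, 21.7 and 18.2 CPM after RA and 4.39, 4.26 and 5.38 CPM in mESCs with shCdk8, a difference of -1.36 (SE 0.23, edgeR adjusted p = 0.035). Il17rd stood at 89.7, 97.9 and 90.8 CPM after RA and 108, 125 and 104 CPM in mESCs with shNMC, and at 141, 165 and 145 CPM after RA and 108, 117 and 116 CPM in mESCs with shCdk8, a difference of -0.68 (SE 0.12, edgeR adjusted p = 0.041). Ptpn13, a protein tyrosine phosphatase gene, stood at 87.0, 88.5 and 88.0 CPM after RA and 56.8, 55.2 and 59.9 CPM in mESCs with shNMC, and at 94.7, 106 and 97.4 CPM after RA and 34.6, 38.8 and 38.8 CPM in mESCs with shCdk8, a difference of -0.79 (SE 0.14, edgeR adjusted p = 0.041). Across 17 settings of the fit the differences of Sulf1, Ddx58 and Klf2 passed in every one, with the highest edgeR or DESeq2 adjusted p at 0.011, 0.033 and 0.044. The difference of Pcdh1 failed in 9 of the 17, that of Il17rd in 11 and that of Ptpn13 in 13, with adjusted p up to 0.16, 0.19 and 0.19.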

How the results depend on the processing

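With median-ratio factors 4487 genes rose and 3838 fell, without a filter 4621 and 3541, and with DESeq2 1.42.0 4582 and 3976. Upper-quartile factors gave 5831 rises and 2400 falls in shNMC cells, with 2708 falls in shCdk8 cells. Library totals without TMM, a setting added after the data were seen, gave 6775 rises and 1878 falls, 383 falls of at least 2-fold, and 2093 falls in shCdk8 cells. Thus the number of falls depends on the scaling, and 0 called genes changed direction. The 6 shNMC libraries alone gave 5007 rises and 4385 falls, and 18 libraries of 3 lines 5460 and 4782. Some named genes with no call in the main fit were called with the 6 libraries alone. They were Aldh1a3, Gata4, Gata6, Gli1, Hoxc13, Lif, Otx2, Pax6, Pbx4 and Rnf2. With the 18 libraries the same genes were called, except that Hoxd11 took the place of Gli1. Same-numbered RA and mESC libraries with shNMC had residual correlations of -0.0956, 0.193 and 0.387, and RA replicate 1 was closest to mESC replicate 2, so pairing by number was not shown for them. Same-numbered libraries correlated by 0.337 to 0.572 between RA and mESCs with shCdk8 and by 0.433 to 0.682 between the lines after RA, but by -0.121 to 0.589 between the lines in mESCs. With the replicate block the 6 libraries gave 5334 rises and 4864 falls, and Egr1 lost its call. Crabp1, Lefty2 and Rara gained one there, beside the genes that gained one with the 6 libraries alone. The difference between the lines passed for 38 genes in a fit of 12 libraries, 305 with the replicate block there, and 27 with DESeq2. Leaving out 1 library at a time gave 3804 to 4158 rises, 3225 to 3777 falls and 3 to 6 differences. Among named genes with no call, the log2 change of Aldh1a2 ran from -0.0032 to 0.297 and that of Rxrb from -0.016 to 0.0941 when single libraries were left out. A prior count of 2 lowered the log2 rises of genes with few mESC reads, as for Hoxb2 (7.87) and Hoxc5 (3.39). Changes of genes at or under 3 reads in every library were not detectable at this depth.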

Other observations

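Of 20 germline and meiosis genes 12 rose and 5 fell, against 13 and 3 with library totals. Rec8, a cohesin subunit of meiosis, stood at 47.0, 53.2 and 40.8 CPM after RA and 9.40, 8.91 and 12.3 CPM in mESCs (log2 2.21, SE 0.25, edgeR adjusted p = 2.9e-07). Of 35 imprinted genes 10 rose and 9 fell, against 13 and 4 with library totals. The maternally expressed RNAs of the Dlk1-Dio3 locus fell while the paternally expressed Dlk1 rose, as Meg3 stood at 89.2, 87.5 and 78.5 CPM after RA and 189, 186 and 207 CPM in mESCs (log2 -1.19, SE 0.21, edgeR adjusted p = 6.6e-05), Rian fell by 1.11 and Dlk1 rose by 1.38. The growth-restricting gene Cdkn1c rose by 1.46.

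Of 25 interferon response genes 9 rose and 8 fell, against 13 and 5 with library totals. Those that rose included Oasl2, at 2.72, 2.61 and 2.09 CPM after RA and 0.291, 0.197 and 0.246 CPM in mESCs (log2 3.33, SE 0.38, edgeR adjusted p = 3.5e-07), and those that fell included Ifitm1, at 43.7, 36.6 and 48.3 CPM after RA and 152, 169 and 155 CPM in mESCs (log2 -1.89, SE 0.14, edgeR adjusted p = 6.1e-10), and Ddx58 at log2 -3.17. Of 7 keratin genes of simple epithelia 5 rose and 1 fell. Krt20 stood at 8.99, 8.52 and 5.14 CPM after RA and 0.187, 0.256 and 0.172 CPM in mESCs (log2 5.17, SE 0.39, edgeR adjusted p = 9.4e-10), and Krt42 at 2.43, 1.93 and 3.84 CPM after RA and 14.1, 13.6 and 15.2 CPM in mESCs (log2 -2.39, SE 0.28, edgeR adjusted p = 5.8e-07). Among the 17 markers of a state resembling the 2-cell embryo 5 rose and 2 fell, and their near-identical copies make these counts uncertain. Of 306 solute carrier genes 99 rose and 63 fell, against 137 and 35 with library totals. Of 18 p53 target genes 1 rose and 1 fell, beside 27.3% and 24.1% of all genes tested, and 3 and 0 did with library totals. Another 2 genes besides Hoxb5 and Hoxb6 had at least 1 CPM after RA with at most 3 reads over the mESC libraries. The unnamed gene model 1700031F05Rik had 227 reads after RA and 0 in mESCs, at least 63.7-fold higher against a floor of 3 reads over the group, and Caln1 had 195 and 0, at least 54.7-fold higher. In the other direction, with at least 1 CPM in mESCs and at most 3 reads over the RA libraries, there were 0 genes.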
